A study of Mus musculus with 3 samples.

Results

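Canonical Wnt signalling in the intestinal crypt is read here through 10 genes: the feedback inhibitors Axin2, Rnf43, Znrf3, Nkd1 and Notum, the receptor gene Tnfrsf19, and the transcription factor genes Sp5, Tcf7, Lef1 and Myc. They were taken by symbol from the 28692 genes of the deposited tables, and all 10 were found. Their levels are counts of unique molecular identifiers (UMIs, the tags that mark single captured transcripts) per 1000000 UMIs, written CPM. Epithelial cells were barcodes with at least 2 Epcam UMIs and 0 Ptprc UMIs, and they were split into Lgr5-positive cells (at least 1 UMI of Lgr5, the R-spondin receptor gene that marks crypt base stem cells), cycling cells (0 Lgr5 UMIs and at least 2 UMIs of the proliferation gene Mki67) and the remaining cells.

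The study sequenced 1 library per genotype from small intestinal crypts of adult C57BL/6 mice aged 2-3 months. The KO library came from Olfm4-IRES-eGFPCreERT2; CDC42flox/flox mice, in which the gene of the polarity GTPase CDC42 is floxed on both alleles. The rescue library came from mice with Yapflox/flox and Tazflox/+, floxed alleles of the transcriptional coactivators YAP and TAZ, besides Olfm4-IRES-eGFPCreERT2; CDC42flox/flox. The control library came from Olfm4-IRES-eGFPCreERT2; CDC42+/flox mice and is labelled Het, so it also carries the Cre and 1 floxed Cdc42 allele. In all 3 the inducible Cre and eGFP are driven from the Olfm4 locus, a gene of crypt base cells. The tamoxifen schedule, the number of mice and the deleted exons are not given in the sources used here. With 1 library per genotype no difference has a replicate check and no test was made. Every interval below is a 95% interval for counting error alone, exact Poisson for a CPM value, exact binomial for a share and conditional exact binomial for a ratio.

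Wnt proteins bind Frizzled and LRP receptors and stop the destruction complex of APC, AXIN, GSK3 and CK1 from marking beta-catenin for degradation. Beta-catenin then enters the nucleus and activates genes with TCF and LEF proteins. Among the targets are brakes on the pathway itself: AXIN2 rebuilds the destruction complex, RNF43 and ZNRF3 are ubiquitin ligases that remove Frizzled from the surface, NKD1 binds Dishevelled, and NOTUM strips the lipid from secreted Wnt. R-spondins, acting through LGR receptors, clear RNF43 and ZNRF3 and so raise Wnt sensitivity at the crypt base, where Wnt signalling keeps stem cells. TCF7 and LEF1 are DNA-binding partners of beta-catenin, SP5 is a zinc finger repressor, MYC drives growth and ribosome production, and TNFRSF19, also called TROY, marks intestinal stem cells in the mouse.

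The 3 barcode tables held 4786 KO, 3449 rescue and 6152 control barcodes, beside 4000-5000 harvested cells per library in the labels. After the filters, 1504 KO, 726 rescue and 515 control epithelial cells remained, with median depths of 41467, 46115 and 33401 UMIs. The libraries shared between 3 and 11 barcodes in pairs, and 0 of them were epithelial. Between 38.3% and 66.27% of barcodes exceeded 20% mitochondrial UMIs and were left out. Cdc42 itself was not lower in the library labelled KO: in Lgr5-positive cells it stood at 245 CPM in KO, 219 CPM in rescue and 185 CPM in control, and in the remaining cells at 398, 446 and 286 CPM. A tag at the transcript's 3' end does not register a deletion elsewhere in the gene, so this does not check the label. Wwtr1, the gene of TAZ, stood at 1.05 CPM in the remaining cells of the rescue library, against 13.2 CPM in KO and 3.22 CPM in control, and Yap1 at 15.6 CPM in rescue, against 22.7 CPM in KO and 20.7 CPM in control. In Lgr5-positive cells Wwtr1 stood at 9.08 CPM in rescue, 17.7 CPM in KO and 11.9 CPM in control, and the rescue over control ratio of 0.762 (0.526-1.09) includes 1.

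The promoters of 2 members are printed here because their readouts differed: Axin2 (ENSMUSG00000000142, chr11:108920349-108950783, plus strand) followed the Lgr5-positive cells, whereas Sp5 (ENSMUSG00000075304, chr2:70474923-70477729, plus strand) did not. Tnfrsf19 (ENSMUSG00000060548, chr14:60963875-61046490, minus strand) is added as the member with 0 UMIs in KO Lgr5-positive cells. Gene positions are from GENCODE M21 on GRCm38. The sequences are RefSeq promoter windows on GRCm38.p6, each of 300 bases from 250 before to 50 after a transcription start, written 5' to 3' on the gene's strand. They lie at chr2:70474673-70474972 for Sp5, chr11:108920099-108920398 for Axin2 and chr14:61037938-61038237 for the downstream Tnfrsf19 start. Capitals mark, on either strand, the TCF motif CTTTGAT or one of its variants, which were CTTTGAA, the form CTTTGTA and the form CTTTGTT:
Sp5: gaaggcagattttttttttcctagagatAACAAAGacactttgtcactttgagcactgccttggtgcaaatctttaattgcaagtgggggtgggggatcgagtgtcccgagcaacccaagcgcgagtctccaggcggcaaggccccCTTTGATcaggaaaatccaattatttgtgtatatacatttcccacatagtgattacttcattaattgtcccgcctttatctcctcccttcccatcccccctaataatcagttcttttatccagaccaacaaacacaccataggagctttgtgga
Axin2: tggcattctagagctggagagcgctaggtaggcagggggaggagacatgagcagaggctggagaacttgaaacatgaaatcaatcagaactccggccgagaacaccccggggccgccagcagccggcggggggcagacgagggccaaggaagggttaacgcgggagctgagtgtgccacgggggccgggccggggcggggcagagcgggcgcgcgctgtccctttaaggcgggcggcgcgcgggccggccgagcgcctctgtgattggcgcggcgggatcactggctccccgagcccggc
Tnfrsf19: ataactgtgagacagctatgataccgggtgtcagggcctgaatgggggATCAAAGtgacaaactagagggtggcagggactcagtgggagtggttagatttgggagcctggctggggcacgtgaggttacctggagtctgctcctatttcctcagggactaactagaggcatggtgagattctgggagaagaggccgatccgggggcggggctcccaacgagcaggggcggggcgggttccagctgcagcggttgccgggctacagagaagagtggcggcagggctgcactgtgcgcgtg
Windows were matched for 7 members, with 13 windows in all, of which 2 Lef1 windows overlap each other. Sp5 held 2 motifs, 222 and 104 bases before its start, and they do not overlap. Tnfrsf19 held 1 motif, 202 bases before its downstream start, and Lef1 held 1, 147 bases before the most downstream of its listed starts. The windows of Axin2, Rnf43, Nkd1 and Tcf7 held none of these motifs. Nor did the window of the upstream Tnfrsf19 start or the other Lef1 windows. Of 32851 promoter windows of the same length, 16.9% held at least 1 such motif and 1.94% held at least 2. A match of letters describes the window and shows no binding.

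Of the other members, Rnf43 (ENSMUSG00000034177) is at chr11:87662722-87735539 on the plus strand, Znrf3 (ENSMUSG00000041961) at chr11:5276324-5444847 on the minus strand, Nkd1 (ENSMUSG00000031661) at chr8:88521354-88594884 on the plus strand and Notum (ENSMUSG00000042988) at chr11:120653788-120661175 on the minus strand. Tcf7 (ENSMUSG00000000782) is at chr11:52252371-52283014 on the minus strand, Lef1 (ENSMUSG00000027985) at chr3:131110471-131224356 on the plus strand and Myc (ENSMUSG00000022346) at chr15:61985391-61990374 on the plus strand. Tcf7 overlaps Gm26551 on its own strand, so UMIs between those could be split. Axin2, Notum, Lef1 and Tcf7 have annotated genes on the opposite strand.

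Lgr5-positive cells made up 1.13% of KO epithelial cells (17 cells, interval 0.660-1.80%), 9.64% of rescue epithelial cells (70 cells, 7.59-12.02%) and 30.5% of control epithelial cells (157 cells, 26.5-34.7%). With every cell thinned to 2000 UMIs, which left out 52 KO, 14 rescue and 37 control cells, the shares were 0.344% in KO, 1.69% in rescue and 8.58% in control. The share in immune barcodes (at least 1 Ptprc UMI and 0 Epcam UMIs) was 0 of 118 in KO, 0 of 466 in rescue and 1 of 353 in control on the same footing; their median depth before thinning was 4885, 4804 and 4956 UMIs. Cycling cells were 13.5% of KO, 27.7% of rescue and 8.54% of control epithelial cells (203, 201 and 44 cells), and the remaining cells were 85.4%, 62.7% and 61.0% (1284, 455 and 314 cells). With at most 10% mitochondrial UMIs the thinned shares were 0.370% in KO (3 of 811), 0% in rescue (0 of 163) and 5.03% in control (8 of 159), so KO and rescue kept no order there and both stood below control.

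Summed over all epithelial cells, most members were lower in the KO library than in control. Axin2 stood at 10.8 CPM in KO, 23.3 CPM in rescue and 51.6 CPM in control, and Myc at 3.26, 16.3 and 29.5 CPM. Tnfrsf19 stood at 0.196 CPM in KO, 1.33 CPM in rescue and 5.50 CPM in control, and Nkd1 at 0.326, 0.753 and 5.82 CPM. Sp5, Rnf43 and Tcf7 did not follow this order, and each stood lower in rescue than in KO. Rnf43 had 1346 of 61355024 epithelial UMIs in KO and 601 of 39846684 in rescue, and Tcf7 had 193 and 100. Sp5 stood at 28.7 CPM in KO, 12.02 CPM in rescue and 29.1 CPM in control, a KO over control ratio of 0.985 (0.894-1.09). Among the 8 members that reached 20 UMIs in KO or control, 6 were at least 2-fold lower in KO and 0 at least 2-fold higher, where 25.3% of all genes measured were lower and 10.8% higher by that rule. Between rescue and control the same counts were 6 and 0 of 8, where 11.6% of genes were lower and 3.52% higher. Both comparisons use the same control library.

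Where the UMIs of each gene lay differed between libraries more for some members than for others. In control, Lgr5-positive cells held 38.0% of all epithelial UMIs but 76.2% of those of Axin2, 69.8% of Rnf43, 66.1% of Sp5 and 69.5% of Myc. In KO, where these cells held 0.737% of all UMIs, they held 5.86% of Axin2, 1.63% of Rnf43, 1.14% of Sp5 and 9% of Myc. Rescue lay between, at 13.8% of all UMIs, 44.7% of Axin2, 35.1% of Rnf43, 31.3% of Sp5 and 44.4% of Myc. Most KO UMIs of Sp5 (92.6%) and Rnf43 (78.8%) came from the remaining cells, whereas most KO UMIs of Myc (76%) came from cycling cells. In control the remaining cells held 29.6% of the Sp5 UMIs and cycling cells 9.51% of the Myc UMIs.

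**Figure D1:**
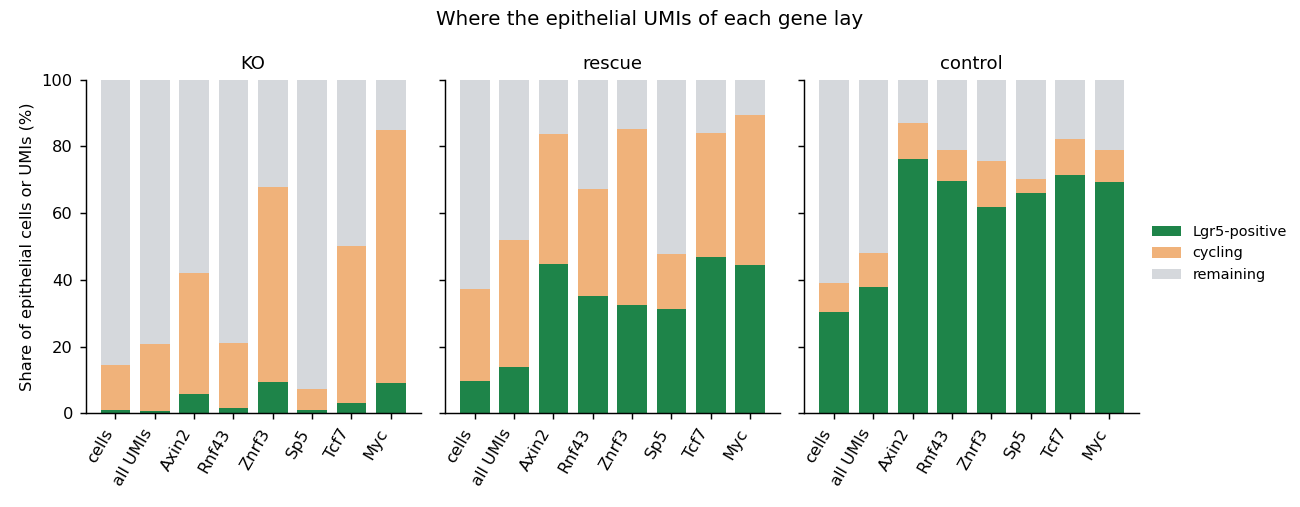
Share of epithelial cells, of all epithelial UMIs and of the UMIs of 6 members (y axis, percent) that fell in Lgr5-positive, cycling and remaining cells, with 1 panel each for the KO, rescue and control libraries. Sp5 UMIs came mostly from remaining cells in KO (92.6%, beside 79.3% of all UMIs) and mostly from Lgr5-positive cells in control (66.1%, beside 38.0% of all UMIs).

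Axin2, Rnf43, Sp5, Tcf7, Znrf3 and Myc each stood within 2-fold of control in the Lgr5-positive cells of KO, and Tnfrsf19 and Nkd1 stood lower. Of the 8 members measured, 2 were at least 2-fold lower and 0 at least 2-fold higher in KO, where 11.5% of 10193 genes were lower and 14% higher. The median log2 ratio of the 8 was −0.34, beside 0.31 over all genes measured. The 17 KO cells held 452456 UMIs, against 7043274 in the 157 control cells, so most ratios carry wide intervals. A single Lgr5 UMI placed 12 of the 17 KO cells in this population, beside 28 of 70 rescue and 45 of 157 control cells. The median was 0.35 with at most 10% mitochondrial UMIs. With cells thinned to 5000 UMIs and Lgr5 called again, it was −1.42, over only 4 members measured in 8 KO and 59 control cells.

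Axin2, the brake at the destruction complex, stood at 86.2 CPM in KO (39 UMIs, 61.3-118), 75.4 CPM in rescue (415 UMIs, 68.3-83.0) and 103.5 CPM in control (729 UMIs, 96.1-111) in Lgr5-positive cells. The KO interval spans the other 2 values, whereas rescue lay below control. The ratio to control was 0.833 (0.587-1.15) for KO and 0.728 (0.644-0.823) for rescue. Axin2 was found in 16 of 17 KO cells, 64 of 70 rescue cells and 131 of 157 control cells, with a median per cell of 87.0, 66.9 and 111.1 CPM. Nkd1, the Dishevelled-binding brake, stood at 2.21 CPM in KO (1 UMI), 5.09 CPM in rescue (28 UMIs) and 11.9 CPM in control (84 UMIs). Its ratio was 0.185 in KO, with an interval of 0.00464-1.06 that reaches 1, and 0.427 in rescue (0.268-0.661).

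The genes of the Frizzled-removing ligases differed from each other. Rnf43 stood at 48.6 CPM in KO, 38.3 CPM in rescue and 65.6 CPM in control, a ratio of 0.741 (0.460-1.14) for KO and 0.584 (0.494-0.689) for rescue. Znrf3 stood at 17.7 CPM in KO (8 UMIs), 13.4 CPM in rescue and 13.4 CPM in control, with ratios of 1.32 (0.556-2.72) and 1.01 (0.733-1.38). Rnf43 was thus lower in rescue than in control beyond counting error, and Znrf3 was not. Notum, the secreted Wnt deacylase, had 0 UMIs in the KO and rescue cells and 5 UMIs in control cells, too few to compare.

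Tnfrsf19 had 0 UMIs in the KO Lgr5-positive cells, against 45 UMIs in rescue (8.18 CPM) and 95 UMIs in control (13.5 CPM). With a floor of 3 UMIs over the KO cells in place of 0, the KO level was 2.03-fold lower than control. This value depends on the floor chosen and is not a limit of the 95% interval. The rescue over control ratio was 0.606 (0.415-0.873). With 17 KO cells, Tnfrsf19 below that floor was not detectable.

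Sp5 stood at 44.2 CPM in KO (20 UMIs), 27.3 CPM in rescue (150 UMIs) and 50.7 CPM in control (357 UMIs), so KO overlapped control and rescue lay lower. Its ratio to control was 0.872 (0.526-1.37) for KO and 0.538 (0.441-0.652) for rescue. Tcf7 stood at 13.3 CPM in KO (6 UMIs), 8.54 CPM in rescue and 13.8 CPM in control, with ratios of 0.963 (0.345-2.17) and 0.620 (0.428-0.887). Myc stood at 39.8 CPM in KO (18 UMIs), 52.3 CPM in rescue and 54.0 CPM in control, and both ratios, 0.737 (0.432-1.18) and 0.970 (0.829-1.13), have intervals that include 1. A single KO cell held 38.9% of the KO Myc UMIs, and Myc was found in 7 of 17 KO cells, 58 of 70 rescue cells and 106 of 157 control cells. Lef1 was near 0 in all 3, with 0 UMIs in KO, 1 in rescue and 13 in control.

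**Figure D2:**
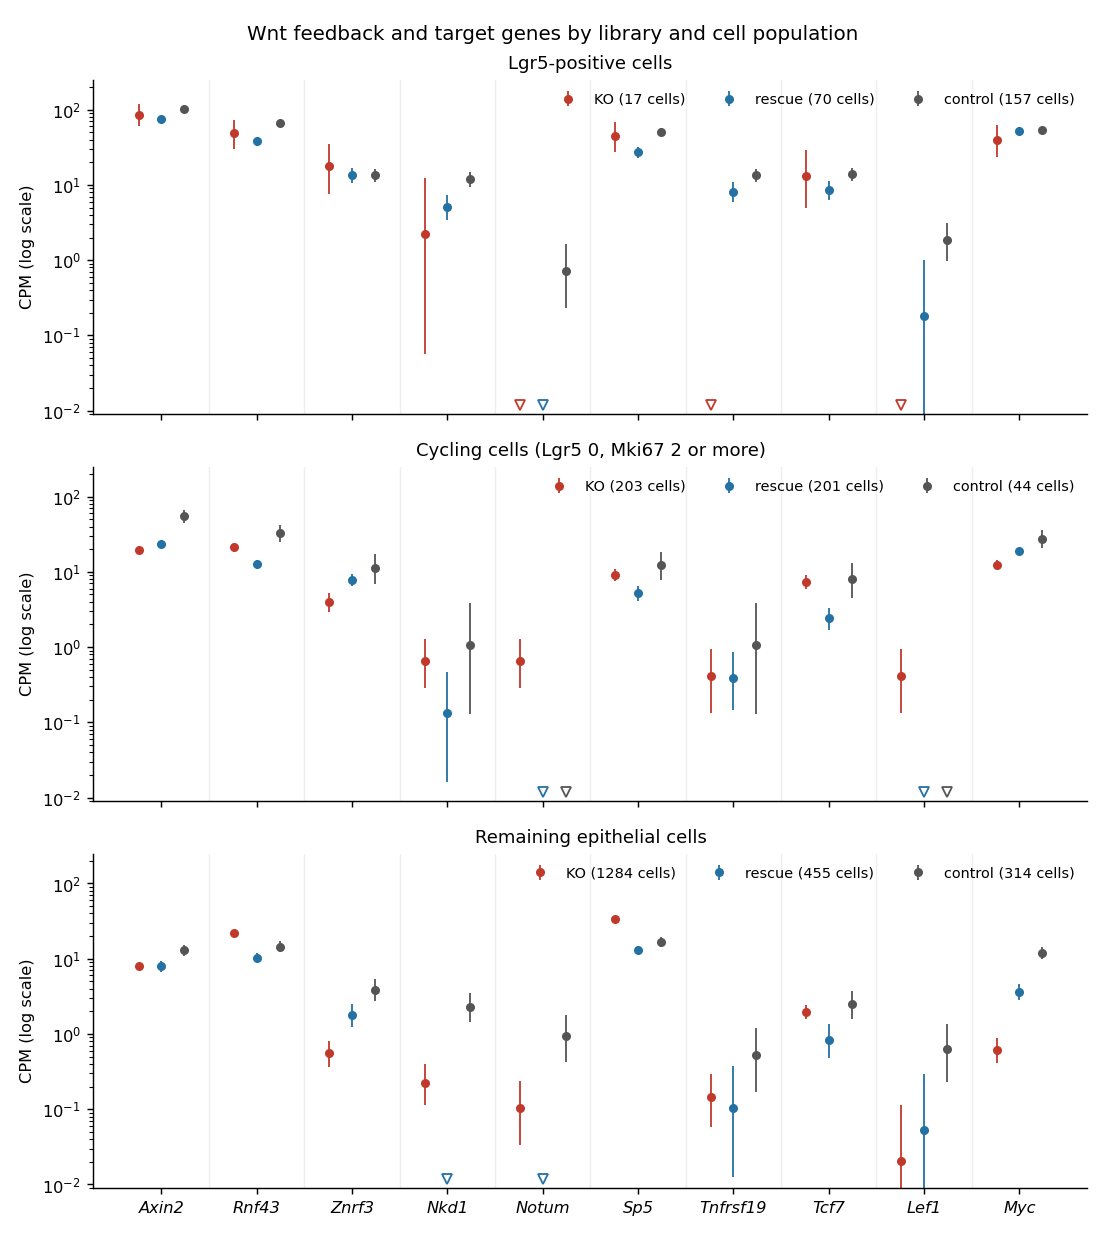
CPM of each of the 10 members (y axis, log scale) in Lgr5-positive, cycling and remaining epithelial cells of the KO, rescue and control libraries. Points are the level from summed UMIs, bars the exact Poisson interval, and open triangles mark 0 UMIs; in remaining cells Sp5 was highest in KO (33.5 CPM) and Myc highest in control (11.95 CPM).

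In rescue Lgr5-positive cells 1 of the 8 members measured, Nkd1, was at least 2-fold lower than control and 0 were at least 2-fold higher, where 5.98% of genes were lower and 4.18% higher. The median of the 8 was −0.65, beside 0.04 over all genes, and the count of members lower was between 0 and 3 under the alternatives. The cells also differed in other ways. Those with at least 2 Mki67 UMIs were 58.8% of the KO, 65.7% of the rescue and 21.02% of the control Lgr5-positive cells. Among cells with 0 or 1 Mki67 UMI (7 KO, 24 rescue and 124 control cells), Axin2 had a log2 ratio to control of −0.64 in KO and −1.27 in rescue. Among cells with at least 2 (10 KO, 46 rescue and 33 control cells), the same log2 ratios were 0.05 and −0.07. In rescue over control Tnfrsf19 stood at 0.0090, Znrf3 at 0.057, Myc at 0.19, Rnf43 at −0.40, Sp5 at −0.47 and Tcf7 at −0.88. The median of the members there was −0.070, beside 0.23 over all genes in the same cells. By these log2 values Axin2 was near level between rescue and control, and Rnf43, Sp5 and Tcf7 were below control. With 0 or 1 Mki67 UMI, rescue over control was −2.42 for Tnfrsf19, −1.21 for Rnf43, −0.83 for Sp5 and −0.72 for Tcf7. It was −0.38 for Nkd1, −0.32 for Znrf3 and −0.32 for Myc. No interval was made for this split, so counting error was not judged in it.

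Transcripts of Paneth cells, the secretory neighbours of stem cells, also differed between the libraries in these cells. The Paneth marker list summed to 0.0345% of UMIs in KO, 7.60% in rescue and 12.05% in control Lgr5-positive cells. In KO, 4 of its 10 genes were detected and the defensin-type genes Defa17, Defa22 and Defa26 were at 0. Without barcodes that held 5% or more of the list, which were 0 KO, 7 rescue and 24 control cells, the log2 ratio of Axin2 was −0.70 in KO and −0.64 in rescue. The stem cell list, of which Axin2, Sp5 and Tnfrsf19 are part, summed to 2184, 1664 and 2399 CPM. The goblet list summed to 1092 CPM in KO, 4743 CPM in rescue and 9189 CPM in control, and the immune list, with Ptprc at 0 by the rule, to 24.3, 75.03 and 75.8 CPM.

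**Figure D3:**
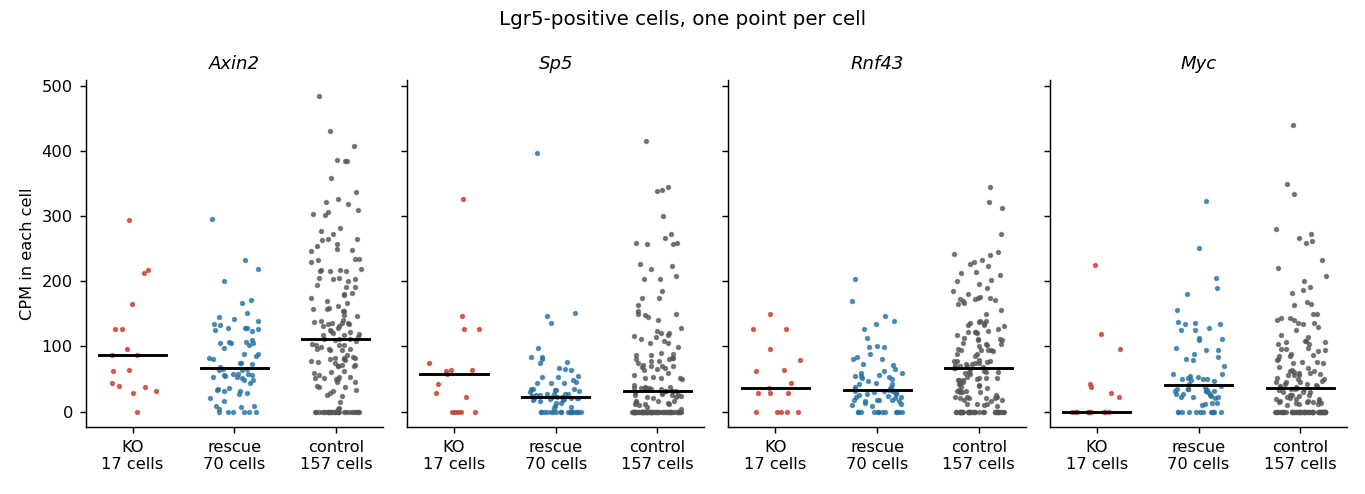
Level per cell (y axis, CPM) of Axin2, Sp5, Rnf43 and Myc in single Lgr5-positive cells, with 17 KO, 70 rescue and 157 control cells. Each point is 1 cell and the horizontal bar is the median over cells, which for Axin2 was 87.0 CPM in KO, 66.9 CPM in rescue and 111.1 CPM in control.

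In cycling cells without Lgr5, Axin2, Znrf3 and Myc were more than 2-fold lower in KO than in control, while Tcf7 and Sp5 were not separated from it. These 3 were the members past 2-fold among the 6 measured, and 0 were at least 2-fold higher, where 8.12% of 10501 genes were lower and 7.63% higher. The median of the 6 was −0.83, beside −0.04 over all genes. Mki67, by which these cells were chosen, stood at 208 CPM in KO, 193 CPM in rescue and 222 CPM in control. Because the rule sets a minimum for it, this level does not check that the populations match. Of the control population only 44 cells and 1880234 UMIs were available.

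Axin2 stood at 19.7 CPM in KO (241 UMIs, 17.3-22.3), 23.7 CPM in rescue (362 UMIs) and 55.3 CPM in control (104 UMIs, 45.2-67.0) in cycling cells, and neither interval of KO or rescue came near that of control. The ratio was 0.356 (0.281-0.452) for KO, a 2.81-fold lower level, and 0.429 (0.344-0.539) for rescue. Rnf43 stood at 21.5 CPM in KO, 12.6 CPM in rescue and 32.4 CPM in control, with ratios of 0.664 (0.501-0.892) and 0.390 (0.291-0.529). Znrf3 stood at 3.998 CPM in KO, 7.86 CPM in rescue and 11.2 CPM in control, with ratios of 0.358 (0.211-0.628) and 0.704 (0.440-1.18). Rnf43 was thus lowest in rescue and Znrf3 lowest in KO. Nkd1 had 8, 2 and 2 UMIs in the KO, rescue and control cycling cells, and Notum 8 UMIs in 3 KO cells, 75% of them in 1 cell.

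Myc stood at 12.4 CPM in KO (152 UMIs), 19.1 CPM in rescue (292 UMIs) and 27.7 CPM in control (52 UMIs), so the libraries kept the order KO, rescue, control. The ratio to control was 0.448 (0.325-0.627) for KO, a 2.23-fold lower level, and 0.692 (0.514-0.948) for rescue. Sp5 stood at 9.06 CPM in KO, 5.18 CPM in rescue and 12.2 CPM in control, with ratios of 0.740 (0.469-1.22) and 0.423 (0.263-0.706). Tcf7 stood at 7.43 CPM in KO, 2.42 CPM in rescue and 7.98 CPM in control, with ratios of 0.931 (0.536-1.73) and 0.304 (0.163-0.596). Sp5 and Tcf7 were therefore lower than control in rescue and not separated from control in KO. Tnfrsf19 had 5, 6 and 2 UMIs and Lef1 5, 0 and 0 UMIs in KO, rescue and control.

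Of the 6 members measured in rescue cycling cells, Axin2, Rnf43, Sp5 and Tcf7 were at least 2-fold lower than control and 0 were at least 2-fold higher, where 5.96% of genes were lower and 4.18% higher. Their median was −1.14, beside −0.11 over all genes. With at most 10% mitochondrial UMIs, which left 12 control cells, 0 of 5 members measured were at least 2-fold lower in rescue. The enterocyte list summed to 10643 CPM in KO, 3671 CPM in rescue and 6161 CPM in control cycling cells. The Paneth list summed to 118, 177 and 2168 CPM there. The stem cell list, of which Axin2, Sp5 and Tnfrsf19 are part, summed to 406 CPM in KO, 447 CPM in rescue and 929 CPM in control. The part of these mixtures in the ratios was not tested.

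The remaining epithelial cells split the members. Sp5 and Rnf43 were higher in KO than in control, Axin2 was lower, and Myc, Znrf3 and Nkd1 were much lower. Of the 7 members measured, 3 were at least 2-fold lower and 1, Sp5, at least 2-fold higher, where 28.8% of 11899 genes were lower and 9.81% higher. The share of members lower is 3 of 7 against a background that is itself high, and the median of the 7 was −0.64, beside −0.33 over all genes.

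Sp5 stood at 33.5 CPM in KO (1629 UMIs, 31.9-35.1), 13.1 CPM in rescue (250 UMIs) and 16.6 CPM in control (160 UMIs) in the remaining cells. KO lay well above both other libraries. The KO over control ratio was 2.02 (1.71-2.39), just past the 2-fold line, and the rescue over control ratio 0.789 (0.644-0.968). Rnf43 stood at 21.8 CPM in KO (1060 UMIs, 20.5-23.1), 10.3 CPM in rescue and 14.4 CPM in control, with ratios of 1.51 (1.26-1.81) and 0.715 (0.573-0.895). Its higher level in KO did not hold with cells thinned to 5000 UMIs, where its log2 ratio was −0.20, and that of Sp5 was 0.28 there, against 0.97 unthinned. Cells were assigned to populations again after thinning, so these are not the same cells. Control remaining cells were then 355 in place of 314, and control Lgr5-positive cells 59 in place of 157. The rescue over control log2 ratio of Sp5, −0.32, was 0.12 with each cell's CPM averaged and 1.02 with at most 10% mitochondrial UMIs.

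Axin2 stood at 7.93 CPM in KO (386 UMIs), 7.92 CPM in rescue (151 UMIs) and 12.9 CPM in control (124 UMIs), with ratios of 0.616 (0.502-0.760) and 0.615 (0.481-0.786). Znrf3 stood at 0.555 CPM in KO (27 UMIs), 1.78 CPM in rescue (34 UMIs) and 3.84 CPM in control (37 UMIs), with ratios of 0.144 (0.0846-0.244) and 0.464 (0.282-0.759). KO and rescue were level for Axin2 and apart for Znrf3. Nkd1 had 11 UMIs in 3 KO cells, 0 UMIs in rescue and 22 UMIs in 14 control cells. Its KO over control ratio was 0.0989 (0.0433-0.213), and rescue was at least 14.5-fold lower than control by the floor of 3 UMIs. Of the 22 control UMIs, 17 lay in the 21 cells with at least 5% of UMIs from the Paneth list, of which KO had 0 cells and rescue 4. Notum had 5, 0 and 9 UMIs, Tnfrsf19 7, 2 and 5, and Lef1 1, 1 and 6.

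Among the members measured there, Myc had the lowest KO over control ratio. It stood at 0.617 CPM in KO (30 UMIs, 0.416-0.880), 3.62 CPM in rescue (69 UMIs) and 11.95 CPM in control (115 UMIs, 9.86-14.3), with no overlap of the KO and control intervals. The KO level was 19.4-fold lower than control, a ratio of 0.0516 (0.0333-0.0777), and the rescue over control ratio was 0.303 (0.221-0.412). Tcf7 stood at 1.97 CPM in KO (96 UMIs), 0.839 CPM in rescue (16 UMIs) and 2.49 CPM in control (24 UMIs), with ratios of 0.792 (0.502-1.29) and 0.336 (0.167-0.660). For Tcf7 the KO ratio included 1 and its log2 value was 0.16 with median-of-ratios scaling. In rescue 4 of the 7 members measured, Znrf3, Nkd1, Tcf7 and Myc, were at least 2-fold lower than control and 0 at least 2-fold higher, where 12.4% of genes were lower and 2.63% higher; the median was −0.80, beside −0.06 over all genes. The count lower was 2 without secretory cells, where the log2 ratio of Myc was −0.88 against −1.49 with them, and also 2 without barcodes holding T cell transcripts and with at most 10% mitochondrial UMIs.

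**Figure D4:**
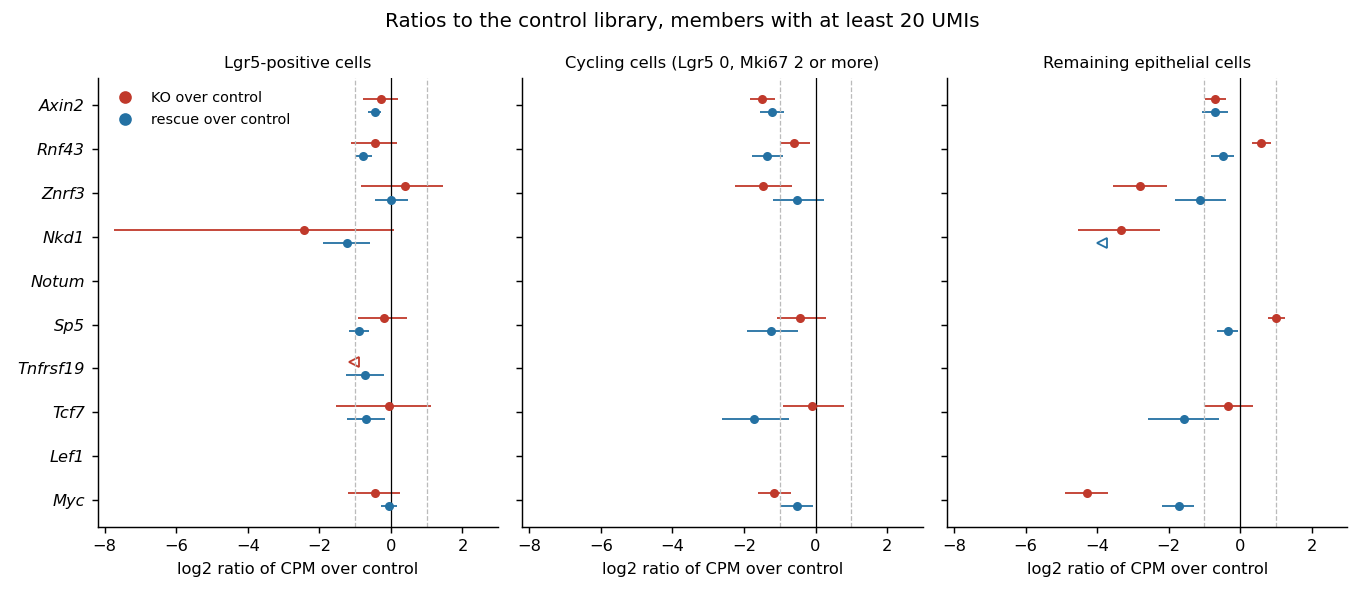
Log2 ratio of CPM over control (x axis) for members that reached 20 UMIs in either library compared, for KO and rescue, in Lgr5-positive, cycling and remaining cells. Points are ratios, bars the conditional exact interval, arrows a bound from a floor of 3 UMIs and dashed lines a 2-fold difference; in remaining cells Sp5 lay at 2.02-fold in KO and Myc at 0.0516-fold.

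The remaining cells were not the same mixture in the 3 libraries. The enterocyte list summed to 73821 CPM in KO, 37417 CPM in rescue and 46651 CPM in control, the Paneth list to 1197, 8774 and 71265 CPM, the goblet list to 27476, 13145 and 15964 CPM, and the immune list to 28.8, 480 and 149 CPM. The cells were therefore also divided by their share of enterocyte transcripts, a division chosen after the data were seen, with goblet, Paneth and enteroendocrine cells set apart. Cells with at least 5% enterocyte transcripts were 797 in KO, 152 in rescue and 94 in control, of like median depth (46593, 41683 and 46973 UMIs).

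In these enterocyte-rich cells Sp5 stood at 40.5 CPM in KO (38.4-42.6), 31.3 CPM in rescue (26.8-36.3) and 25.4 CPM in control (20.7-30.8). Sp5 there remained highest in KO, and rescue and control overlapped. Rnf43 stood at 23.2 CPM in KO (21.6-24.8), 16.2 CPM in rescue (13.0-19.9) and 10.8 CPM in control (7.87-14.5), and KO did not overlap the others. Axin2 stood at 8.18 CPM in KO (7.26-9.18), 7.38 CPM in rescue (5.29-10.0) and 2.71 CPM in control (11 UMIs, 1.35-4.85). This was the opposite direction to the remaining cells as a whole. The rescue and control values lay under the Axin2 levels of immune barcodes, which are given below. Myc was low in the enterocyte-rich cells of every library, at 0.199, 0.360 and 0.739 CPM.

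Cells with under 1% enterocyte transcripts held 88 of the 124 Axin2 UMIs of the control remaining cells. There Axin2 stood at 16.7 CPM in KO (64 cells), 14.8 CPM in rescue (102 cells) and 72.9 CPM in control (74 cells), Rnf43 at 23.5, 11.3 and 43.9 CPM, and Myc at 8.04, 10.4 and 39.0 CPM. Sp5 stood at 11.1 CPM in KO, 4.94 CPM in rescue and 31.5 CPM in control, so in these cells it was highest in control. The median depth of these cells was 16451 UMIs in KO, 40597 in rescue and 10314 in control, and the part of depth in whether a cell showed an Lgr5 UMI was not tested. Of the 115 control Myc UMIs in the remaining cells, 47 came from these cells, 38 from 48 cells with at least 2% goblet transcripts and 24 from the Paneth-rich cells. Goblet-rich cells stood at 0.734 CPM of Myc in KO (195 cells), 3.91 CPM in rescue (36 cells) and 40.0 CPM in control.

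**Figure D5:**
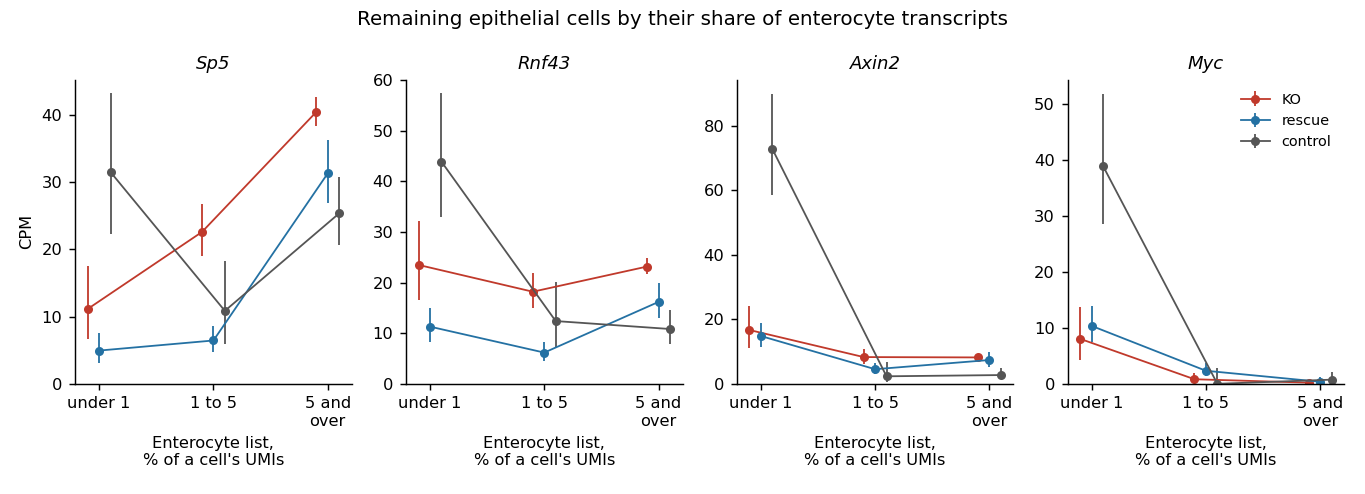
CPM of Sp5, Rnf43, Axin2 and Myc (y axes) in the remaining epithelial cells by each cell's share of enterocyte transcripts (x axes, percent of UMIs), for KO, rescue and control, with exact Poisson intervals. In cells with at least 5% enterocyte transcripts Sp5 stood at 40.5 CPM in KO and 25.4 CPM in control, and in cells with under 1% at 11.1 CPM in KO and 31.5 CPM in control.

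Within each library most members were higher in Lgr5-positive than in remaining cells, and the size of that step differed. For Axin2 it was similar, 10.9-fold in KO, 9.53-fold in rescue and 8.04-fold in control. For Sp5 it was 1.32-fold in KO (0.804-2.05), 2.08-fold in rescue and 3.05-fold in control, and for Rnf43 2.23-, 3.71- and 4.54-fold. For Myc it ran the other way, at 64.5-fold in KO (33.9-120), 14.5-fold in rescue and 4.52-fold in control. Cycling cells stood below remaining cells for Sp5 in KO, at a ratio of 0.271, and in rescue, at 0.395, while in control the ratio was 0.736 (0.454-1.14). The steps share their libraries' cell mixtures described above.

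Between rescue and KO, Myc and Znrf3 were higher in rescue outside the Lgr5-positive cells, and Sp5, Rnf43 and Tcf7 were lower. In Lgr5-positive cells the CPM ratio put 0 of 8 members past 2-fold lower in rescue and 2, Nkd1 and Tnfrsf19, past 2-fold higher, where 10.3% of genes were lower and 9.61% higher. Counting error does not separate either from 1. Nkd1 had 28 UMIs in rescue against 1 in KO, a ratio of 2.30 with an interval of 0.381-94.1. Tnfrsf19 had 45 UMIs against 0. With the floor of 3 UMIs for KO in place of 0, its rescue level was 1.23-fold higher, while the interval of the ratio starts at 0.962. The ratio of Axin2 there was 0.875 (0.629-1.25), of Sp5 0.617 (0.385-1.04) and of Myc 1.31 (0.817-2.25), so none of these was separated from 1.

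In cycling cells the rescue over KO ratio was 1.54 for Myc (1.26-1.89), 1.97 for Znrf3 (1.40-2.80) and 1.21 for Axin2 (1.02-1.43), against 0.571 for Sp5 (0.423-0.769), 0.587 for Rnf43 (0.485-0.709) and 0.326 for Tcf7 (0.217-0.483). Tcf7 was the 1 of 6 members past 2-fold, where 7.22% of genes were lower and 6.41% higher. In the remaining cells the ratio was 5.87 for Myc (3.77-9.33) and 3.21 for Znrf3 (1.88-5.53), against 0.391 for Sp5 (0.341-0.447), 0.474 for Rnf43 (0.405-0.552) and 0.425 for Tcf7 (0.234-0.726). Axin2 was level there, at 0.998 (0.821-1.21). Of the 6 members measured, 3 were at least 2-fold lower and 2 at least 2-fold higher, where 11.2% of genes were lower and 21.8% higher. The directions of Tcf7 in the remaining cells and of Axin2 in cycling cells turned when each cell's CPM was averaged with equal weight, to log2 ratios of 0.04 and −0.04.

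Immune barcodes, which have no Epcam UMI, were set beside the epithelial levels. Their median depth was lower, at 4885 UMIs in KO, 4804 in rescue and 4956 in control. How far their counts are their own transcripts or carry-over from other cells was not tested, so they are not a measured background. Axin2 stood in immune barcodes at 4.22 CPM in KO, 12.4 CPM in rescue and 29.0 CPM in control. The levels of Axin2 in the remaining epithelial cells of rescue and control did not exceed the immune level. Znrf3 stood at 10.6, 7.39 and 21.3 CPM in immune barcodes, above the remaining epithelial cells of every library. The immune level was also above the Znrf3 level in the cycling cells of KO and control and in the Lgr5-positive cells of control. Any part of carry-over in the Znrf3 difference between cycling cells was not tested. Sp5 stood at 0 CPM in KO, 1.17 CPM in rescue and 1.09 CPM in control, far below its epithelial levels, and Nkd1, Notum and Tnfrsf19 had 0 UMIs in immune barcodes of all 3 libraries. Tcf7, at 48.6, 80.9 and 56.3 CPM, Lef1, at 6.34, 17.5 and 11.5 CPM, and Myc, at 16.9, 11.3 and 6.56 CPM, are expressed by lymphocytes themselves. Rnf43 stood at 5.28, 14.0 and 7.65 CPM in immune barcodes. In rescue, its levels in cycling cells (12.6 CPM) and in the remaining cells (10.3 CPM) lay under this immune level.

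Other genes of the Wnt pathway were described by lists of their roles. Their counts stand beside shares over all genes in KO over control of 11.5% lower and 14% higher in Lgr5-positive cells, 8.12% and 7.63% in cycling cells, and 28.8% and 9.81% in the remaining cells. In KO over control Lgr5-positive cells, 1 of 16 measured genes of the destruction complex and Dishevelled list was at least 2-fold lower and 1 higher, 0 of 16 in cycling cells, and 2 of 16 lower in the remaining cells, a smaller share there than over all genes. There Amer1 had a ratio of 0.219 and Dvl2 of 0.336, while the beta-catenin gene Ctnnb1 stood at 359.5 CPM in KO and 215.8 CPM in control (1.67) and Gsk3a had a ratio of 1.70. Of the receptor list, 6 of 11 measured genes were at least 2-fold lower in KO remaining cells and 0 higher, with Fzd9 at 0 UMIs in KO against 20 in control, Ror2 at 0.134, Ryk at 0.861 and Lrp5 at 1.43. Of the nuclear list, 3 of 14 were lower, a share below that over all genes, and 0 higher, with the corepressors Tle2 and Tle3 at 0.121 and 0.383, Tle1 at 1.26 and the intestinal TCF gene Tcf7l2 at 110 CPM in KO and 66.0 CPM in control (1.67).

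Ligand-side genes lay on both sides in the KO remaining cells. Wnt3, a ligand made by Paneth cells, stood at 0.740 CPM in KO and 11.5 CPM in control (0.0642), and Wls, which carries Wnt to the surface, had a ratio of 0.0938, while Wnt9a and Porcn, the Wnt acyltransferase, had ratios of 3.23 and 3.68. These are the 2 of 7 measured ligand and secretion genes lower and 2 of 7 higher, and 2 of 7 lower is near the 28.8% of all genes lower there. Of 5 other inhibitors measured, 4 were lower and 1 higher: Sfrp5 had 0 UMIs in KO against 123 in control, Cxxc4 had a ratio of 0.0448, Dact2 of 0.445 and Kremen1 of 2.55. The Paneth list sums above moved with these counts, and its part in them was not tested.

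A list of 19 other Wnt targets in crypts was at least 2-fold lower in KO for 4 of 19 measured genes in Lgr5-positive cells, 7 of 18 in cycling cells and 14 of 19 in the remaining cells, with 1, 1 and 0 higher, where 11.5%, 8.12% and 28.8% of all genes were lower. In Lgr5-positive cells its lowest were Mmp7, a Paneth cell protease gene, at 22.1 CPM in KO and 559 CPM in control, and Fosl1 at a ratio of 0.219. Its highest were Ephb2 at 1.59 and the adhesion receptor gene Cd44, at 234 CPM in KO and 64.5 CPM in control (3.63, 2.91-4.50). In the remaining cells the stem cell factor gene Ascl2 stood at 0.308 CPM in KO and 6.13 CPM in control (0.0503), Kit had a ratio of 0.0560, Cdx2 of 0.810 and Ephb2 of 0.858. In rescue over control the list had 1 of 19, 6 of 18 and 11 of 19 lower and 0 higher in the 3 populations, where 5.98%, 5.96% and 12.4% of all genes were lower.

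Genes that act with MYC or downstream of it had other ratios than Myc in the cycling cells. Of the list of MYC partners and targets, 1 of 24 measured was at least 2-fold lower and 6 of 24 higher in KO Lgr5-positive cells, where 11.5% and 14% of all genes were, led by Cad, the pyrimidine synthesis gene, at a ratio of 4.92, and Bop1 at 2.41, with Mxd1 at 0.316 and Mnt at 0.660 the lowest. In cycling cells 1 of 24 was lower and 0 higher, where 8.12% and 7.63% of all genes were, with a median log2 ratio of 0.01, although Myc itself was 2.23-fold lower there. In the remaining cells 14 of 23 were lower and 0 higher, where 28.8% of all genes were lower and 9.81% higher, with Polr1b at 0.135 and Cdk4 at 13.8 CPM in KO and 84.5 CPM in control (0.164). At the upper end were Mxd1, the MAX partner gene of differentiated cells, at 244 CPM in KO and 125 CPM in control (1.95), and Ldha at 2209 CPM and 1111 CPM (1.99). In rescue over control 1 of 24 was lower in the remaining cells, where 12.4% of all genes were, with a median of −0.27. In rescue over KO 14 of 24 were higher and 1 lower, where 21.8% and 11.2% of all genes were, with a median of 1.08 beside 0.23 over all genes.

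Across the 9 values of 3 libraries and 3 populations, the genes most like Axin2 were Cdk6, Nr2e3, Slco3a1, Ascl2 and Zbtb38, with Pearson r of log2(CPM + 1) between 0.98 and 0.99 among 7366 genes. Of the members, Znrf3 (0.95), Myc (0.92), Tcf7 (0.92) and Rnf43 (0.87) followed Axin2 closely, Nkd1 (0.76) and Tnfrsf19 (0.65) less so, and Sp5 (0.44), Lef1 (0.31) and Notum (−0.08) least. Genes most like Myc were Slc12a2, Cnn3, Adi1, Cdca7 and Rbm38, with r between 0.98 and 0.99. Znrf3 had an r of 0.98 with Myc and Sp5 one of 0.17. The 9 points share libraries, depth and cell mixtures, so these values describe likeness only.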

How the data were processed

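Each library's deposited matrix holds, per gene and barcode, a count of UMIs written by Cell Ranger, per the file headers, which name version 3.0.2 for KO and control and 3.1.0 for rescue. Cell Ranger 1.3.0 stands in the submitters' processing notes. For the genome build, the sources used here give no name. Crypts were digested with TrypLE (3x) for 1 h and run with version 3 of the 10x Chromium 3' kit, per the labels' protocols.

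The full tables held 85525811 KO, 64355665 rescue and 58433966 control UMIs. A barcode entered with 500 or more detected genes, 1000 or more UMIs and a mitochondrial share of no more than 20%, a filter that 2036 KO, 1897 rescue and 1595 control barcodes passed. UMIs were summed per library and population with no further normalization than CPM. Doublets were kept, and an alternative removed the 33, 29 and 20 barcodes of highest score against simulated doublets. A gene counted as measured with 20 UMIs in 1 of the libraries compared, and as past 2-fold at a CPM ratio of 2 or 0.5. Log2 medians and ranges used a pseudocount of 1 CPM. Where a library had 0 UMIs, bounds used a floor of 3 UMIs over the group.

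The members, marker lists and pathway lists were chosen with earlier results of these data known, and no list is independent support. All members were named. Of a pathway list the text names the 2 highest and 2 lowest ratios, and for likeness the 5 highest Pearson r among genes with at least 20 CPM in 1 of 9 values. Of the 28692 identifiers 28339 (98.8%) were found in GENCODE M21. Python 3.11.15 with numpy 2.4.6, scipy 1.17.1, pandas 2.3.3 and scikit-learn 1.9.0 was used, and edgeR 4.0.16 in R 4.3.3 gave the TMM factors. Interval and ratio code was tested on simulated data. UMI counts of a library are not replicates, so intervals cover counting error only.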

Additional observations from a re-analysis of the deposited data

Results flagged for a closer look

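Rnf43 had a KO over control log2 ratio of 0.56 in the remaining epithelial cells and −0.57 in the cycling cells, opposite directions under the same contrast. The difference between the populations was not tested, since each genotype is 1 library. With cells thinned to 5000 UMIs and then assigned to populations again, the log2 ratio in the remaining cells was −0.20.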

How the results depend on the processing

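Values below are log2 medians of the members, counts of members at least 2-fold lower or higher, or log2 ratios of single members. Each alternative's value comes first and the value in the report stands in parentheses. Members were measured anew under each alternative, so its counts and medians can cover other members than those of the report. After thinning, cells were also assigned to populations again. Of 573 summary values under the alternatives, including those an alternative did not touch, 500 stayed within their limits, 66 moved and 7 turned direction. Of 1229 values of single members 1170 kept their sign. No paired analysis was possible because each genotype is 1 library. The cause of each shift below was not tested.

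TMM scaling moved the median of all genes by −0.39, 0.14 and 0.43 in KO over control (Lgr5-positive, cycling and remaining cells) and median-of-ratios scaling by −0.38, 0.13 and 0.49. TMM scaling moved it by −0.05, 0.19 and 0.14 in rescue over control and by 0.34, 0.05 and −0.30 in rescue over KO. With TMM and with median-of-ratios scaling, KO over control in remaining cells had a median of −0.18 and −0.12 (−0.64) with 2 and 2 members higher (1). Rescue over KO then had a median of 0.091 and 0.079 in Lgr5-positive cells (−0.26) and 1 and 1 member higher in cycling cells (0). With the mean of each cell's CPM, 0 members were higher in KO over control remaining cells (1), 3 lower in rescue over control Lgr5-positive cells (1) and Sp5 in rescue over control remaining cells was 0.12 (−0.32). Rescue over KO then had 2 lower (1) and Axin2 at −0.037 (0.26) in cycling cells, and in remaining cells a median of 0.034 (−0.35), 1 lower (3), 1 higher (2) and Tcf7 at 0.044 (−0.69).

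With at most 10% mitochondrial UMIs, which left 49, 12 and 113 control cells in the 3 populations, KO over control Lgr5-positive cells had a median of 0.35 (−0.34). Rescue over control had a median of −0.52 (−1.14) and 0 lower (4) in cycling cells, and 2 lower (4), 1 higher (0) and Sp5 at 1.02 (−0.32) in remaining cells. Rescue over KO had 2 lower (0) and 0 higher (2) in Lgr5-positive cells, a median of 0.38 (−0.22), 0 lower (1) and 1 higher (0) in cycling cells, and 0 higher (2) and Tcf7 at 0.14 (−0.69) in remaining cells. With cells thinned to 5000 UMIs, KO over control had a median of −1.42 (−0.34) and 1 higher (0) in Lgr5-positive cells, and a median of −1.001 (−0.64), 0 higher (1) and Rnf43 at −0.20 (0.56) in remaining cells. Rescue over KO then had 1 lower (3) and 1 higher (2) in remaining cells. No member reached 20 UMIs in the thinned cycling cells, or in the thinned Lgr5-positive cells of rescue and KO, so this alternative gave no value there.

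Counts of members higher in KO over control remaining cells were 0 (1) with at least 4 Mki67 UMIs, without barcodes of 5% or of 1% Paneth transcripts, without barcodes holding T cell transcripts, and without secretory cells. Rescue over control had 2 lower (1) in Lgr5-positive cells without barcodes of 5% and of 1% Paneth transcripts. Without T cell transcripts it had 0 lower (1) in Lgr5-positive and 2 lower (4) in remaining cells, and rescue over KO had 0 higher (2) in Lgr5-positive and 1 higher (0) in cycling cells. Without secretory cells rescue over control had 2 lower (4) in remaining cells. With at least 2 Lgr5 UMIs, rescue over KO had a median of 0.29 (−0.26). With a pseudocount of 5 CPM, rescue over control in remaining cells had a median of −0.38 (−0.80). With a minimum of 5 UMIs, and also with no minimum, KO over control had 4 lower (2) in Lgr5-positive, 2 higher (0) in cycling and 6 lower (3) in remaining cells, rescue over control 3 lower (1) in Lgr5-positive and 7 lower (4) in remaining cells, and rescue over KO a median of −0.52 (−0.22) and 4 lower (1) in cycling and 5 lower (3) in remaining cells.

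The split of Lgr5-positive cells by Mki67, the 1% Paneth limit and the removal of secretory cells were added after the data were seen. With 0 or 1 Mki67 UMI, rescue over control had 3 lower (1), and rescue over KO 1 lower (0) and 0 higher (2). With at least 2, rescue over control had a median of −0.070 (−0.65), 0 lower (1) and Tnfrsf19 at 0.0090 (−0.66), and rescue over KO a median of 0.10 (−0.26) and 1 lower (0).

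The thinned share of epithelial cells with an Lgr5 UMI was 15.9% in control at 5000 UMIs (8.58%), 0% in rescue (1.69%) and 5.03% in control with at most 10% mitochondrial UMIs, and 0.0847% in KO (0.344%) and 4.29% in control with at most 50%. Depth limits the KO Lgr5-positive cells most, where Nkd1 rests on 1 UMI and Tnfrsf19 on 0. Across the alternatives the KO over control log2 ratio ran from −4.07 to −1.59 for Myc and from 0.28 to 2.32 for Sp5 in remaining cells, and from −1.85 to −1.14 for Axin2 in cycling cells.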
